A study of Mus musculus with 6 samples.

Results

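The ERBB receptors and the EGF family ligands that activate them were examined in primary mammary epithelial cells (MEC) and in JNK-deficient breast tumor cell lines (MEKO). The family was taken as 10 named genes, 4 receptors (*Egfr*, *Erbb2*, *Erbb3* and *Erbb4*) and 6 ligands (*Areg*, *Tgfa*, *Ereg*, *Hbegf*, *Btc* and *Nrg1*), and each was found as an entry of its own among the 37755 entries of the expression table. The 3 MEC libraries came from separate preparations of *Wap-Cre* (WAPCre+) virgin females of strain C57/Bl6J, each pooling 3 to 5 mice aged 10 to 12 weeks, with RNA taken from the first culture on collagen I. The 3 MEKO libraries came from lines 199, 233 and 336 (genotype Mapk8KO Mapk9KO Cre+, strain C57/Bl6J), each grown from a tumor of a mouse that had borne litters and taken to standard dishes after 2 passages on collagen I. *Wap-Cre* was therefore carried by both groups, is switched on in luminal cells by lactation, and had floxed *Mapk8* and *Mapk9* alleles to delete in MEKO only. The medium given for MEC held serum, EGF and insulin. The growth medium listed for tumor lines held serum with no mention of EGF or insulin. Per the study, tumor mice were bred at 10 to 12 weeks and followed after weaning, so they were older than the MEC mice. The study's JNK-deficient tumors were adenocarcinoma, adenosquamous carcinoma or a mix of both. The part of tumor type in differences between the lines was not tested. Genotype, tumor origin, parity, animal age, time in culture, culture surface, insulin and EGF change together between the groups and cannot be told apart. EGF is itself a ligand of the receptor made from *Egfr*.

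ERBB receptors are tyrosine kinases of the cell surface that signal as dimers. The protein made from *Egfr* binds EGF, amphiregulin (*Areg*) and TGFα (*Tgfa*); epiregulin (*Ereg*), HB-EGF (*Hbegf*) and betacellulin (*Btc*) bind it and ERBB4; neuregulin 1 (*Nrg1*) binds ERBB3 and ERBB4. ERBB2 has no known ligand and acts as a partner of the others, and ERBB3 is a poor kinase that needs such a partner. The ligands are made as precursors anchored in the membrane, from which ADAM proteases cut the active form. In the mammary gland amphiregulin carries the estrogen signal for growth of the ducts, *Erbb4* serves milk production, and *ERBB2* is amplified in a class of human breast cancers.

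Expression was given as FPKM, a fragment count scaled to the length of the gene's transcripts and to the depth of the library. Read numbers are unknown, which leaves counting error without an interval, and steps between very small values placed the libraries at 0.92 to 1.3 times the depth of MEC 1. *Mapk8* was at 19.2 to 25.1 FPKM in MEC and 1.37 to 5.93 FPKM in MEKO, and *Mapk9* at 21.5 to 24.4 and 3.07 to 7.62 FPKM. Line 199 stood apart in its markers. The summed level of 5 basal markers was 1462 to 2733 FPKM in MEC and 2259 FPKM in line 199, against 10.6 FPKM in line 233 and 58.6 FPKM in line 336. That of 6 fibroblast markers was 98.3 to 189 FPKM in MEC, 1100 FPKM in line 199, 2.40 FPKM in line 233 and 4.22 FPKM in line 336. The sum in line 199 was mostly *Col1a1* (599.7 FPKM) and *Col1a2* (408 FPKM). There *Col3a1* (71.5 FPKM), *Pdgfrb* (19.0 FPKM) and *Pdgfra* (1.31 FPKM) were also above each MEC library. In contrast 1 of the 6, *Dcn*, passed the test as lower, at 0.311 FPKM in line 199 against 3.29 to 6.62 FPKM in MEC. The 5 luminal markers summed to 5308 to 8869 FPKM in MEC and to 789 to 1962 FPKM in MEKO, and 4 of them passed the test as lower. Markers of leukocytes (4), endothelium (3) and fat cells (3) summed to at most 12.8 FPKM in any library apart from line 336, where the leukocyte sum of 23.5 FPKM was almost all *Cd68* and the defining leukocyte gene *Ptprc* was at 0. In such bulk samples fewer cells of a type and less RNA per cell cannot be told apart, and the part of these cell types in the results below was not tested.

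Expression was compared as log2(FPKM + 1) with limma over the 12461 genes with a mean of at least 1 FPKM. A gene was called at an adjusted p under 0.05 with a log2 fold change beyond 0.75 in either direction. The filter was passed by 9 of the 10 family members, all but *Erbb4*, and 0 of the 9 were called in either direction, against 9.9% of all tested genes. At an unadjusted p under 0.05 there were 2, *Erbb2* and *Tgfa*, against 28.2% of all tested genes. Among the 9 tested members, only these 2 had MEC and MEKO values that did not overlap, both higher in MEKO and 0 lower. The untested *Erbb4* was lower in each line than in each MEC library, with both groups near 0. Of all tested genes, 37.2% had groups that did not overlap, 18.5% higher and 18.7% lower in MEKO. The median log2 fold change was 0.42 over the 9 members and 0.01 over all tested genes. Among themselves the MEKO lines differed more than the MEC libraries did. The SD of log2(FPKM + 1) was larger in MEKO than in MEC for 9 of 9 members (73.6% of all genes), and the highest line was more than 3 times the lowest for 6 of 9 (22.2% of all genes). The plot of the family by library shows the scatter of the single lines beside that of MEC.

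**Figure D1:**
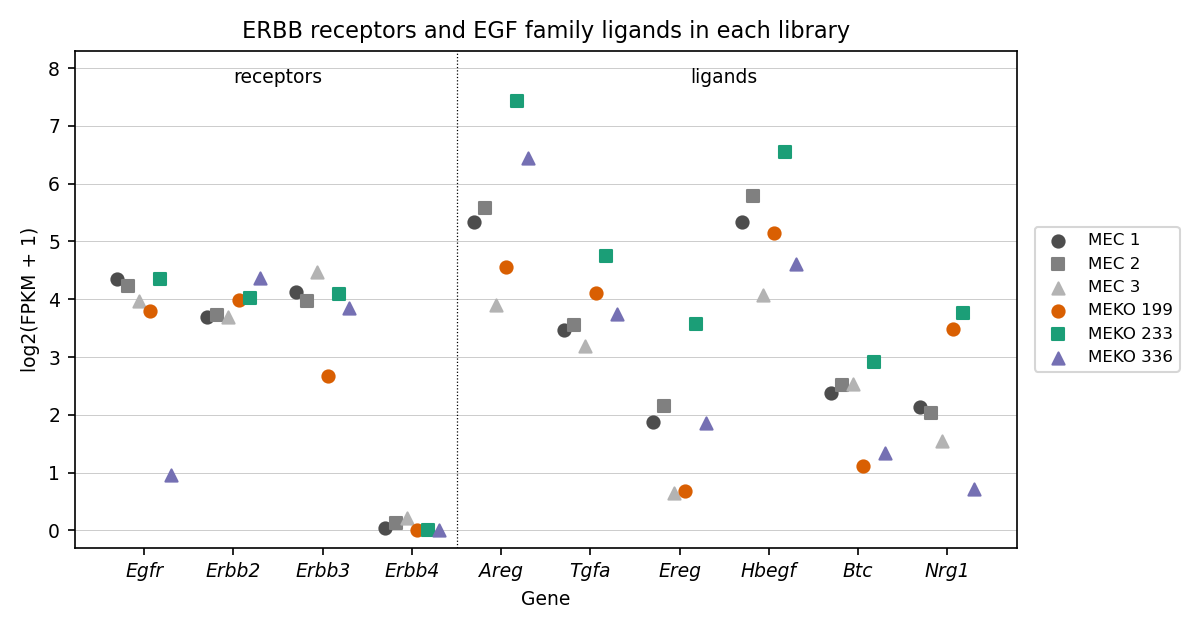
Expression of the 10 family members in each library, as log2(FPKM + 1), with 1 point per library, grey for MEC and colored for MEKO lines. Line 233 lies at the top for each of the 6 ligands, and line 336 lies far below the rest for *Egfr*.

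Among the receptors, *Egfr* (chromosome 11 of GRCm38, 16752203 to 16918158) was near the MEC values in lines 199 and 233 and far lower in line 336. MEC 1, 2 and 3 had 19.4, 17.8 and 14.7 FPKM, and lines 199, 233 and 336 had 12.8, 19.3 and 0.936 FPKM. Line 336 was therefore lower than the MEC mean by a log2(FPKM + 1) difference of -3.23, while line 199 differed by -0.40 and line 233 by 0.16. In that line *Egfr* was above only 10.0% of tested genes, against 56.3% to 65.4% in MEC. The group means were 17.3 ± 2.39 FPKM in MEC and 11.02 ± 9.31 FPKM in MEKO (SD, n = 3), and the log2 fold change of -1.16 (95% interval -3.19 to 0.88) was not past the test (limma adjusted p = 0.41). Without line 336 it was -0.12.

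*Erbb2* (chromosome 11, 98412470 to 98437716) varied least of the 9 tested members. Its level was 12.0, 12.2 and 12.0 FPKM in the MEC libraries and 14.8, 15.2 and 19.6 FPKM in lines 199, 233 and 336, so each line lay above each MEC library. The means were 12.1 ± 0.113 FPKM and 16.6 ± 2.68 FPKM (SD, n = 3). The log2 fold change of 0.42 (95% interval 0.03 to 0.81) stayed under the threshold of size, and it did not pass adjustment (limma unadjusted p = 0.0399, adjusted p = 0.158). An exact permutation test gave a two-sided p of 0.1, as low as 3 against 3 libraries can go. *Erbb2* had the lowest p of the receptors. Of all tested genes, *Tmem259*, *Asnsd1* and *Pgrmc2* had the profiles most like it over the 6 libraries, with root mean square differences of 0.03, 0.03 and 0.04 between log2 values centered on each gene's mean.

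*Erbb3* (chromosome 10, 128567523 to 128589652) had 16.4, 14.7 and 21.1 FPKM in MEC and 5.35, 16.0 and 13.4 FPKM in lines 199, 233 and 336. Line 199 was the low value, with a log2 difference of -1.52 from the MEC mean, and line 233 fell within the MEC range. Line 199 had summed fibroblast markers above MEC, mostly *Col1a1* and *Col1a2*, with *Col3a1*, *Pdgfra* and *Pdgfrb* also above and *Dcn* below. It also had the lowest luminal sum of all libraries (789 FPKM) and a basal sum within the MEC range (2259 FPKM). The part of these markers in the low *Erbb3* was not tested. The log2 fold change of *Erbb3* was -0.65 (95% interval -1.58 to 0.29, limma adjusted p = 0.322), and without line 199 it was -0.21.

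*Erbb4* (chromosome 1, 68032186 to 69108059) was barely detected. It had 0.0322, 0.1 and 0.166 FPKM in MEC, was listed at 0 in lines 233 and 336, and had 0.00148 FPKM in line 199. The lines were all below MEC, but both groups lay near 0 and *Erbb4* was not tested by limma (exact permutation test, two-sided, p = 0.1).

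The receptors thus made up different mixtures in each line. Since FPKM is per length, levels can be set side by side. *Egfr*, *Erbb2* and *Erbb3* held 30.7% to 40.6%, 25.0% to 27.3% and 32.8% to 43.9% of the summed receptor FPKM in MEC. Line 233 was near these shares, with 38.2% *Egfr*, 30.1% *Erbb2* and 31.7% *Erbb3*. In line 199 *Erbb2* held 44.9% and *Erbb3* 16.2%. In line 336 *Erbb2* held 57.8% and *Egfr* 2.75%, a level of *Erbb2* 21.0 times that of *Egfr*, where this ratio was 0.618 to 0.813 in MEC. The summed receptor level was 44.7 to 48.0 FPKM in MEC, 50.6 FPKM in line 233, and 33.0 and 34.02 FPKM in lines 199 and 336.

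**Figure D2:**
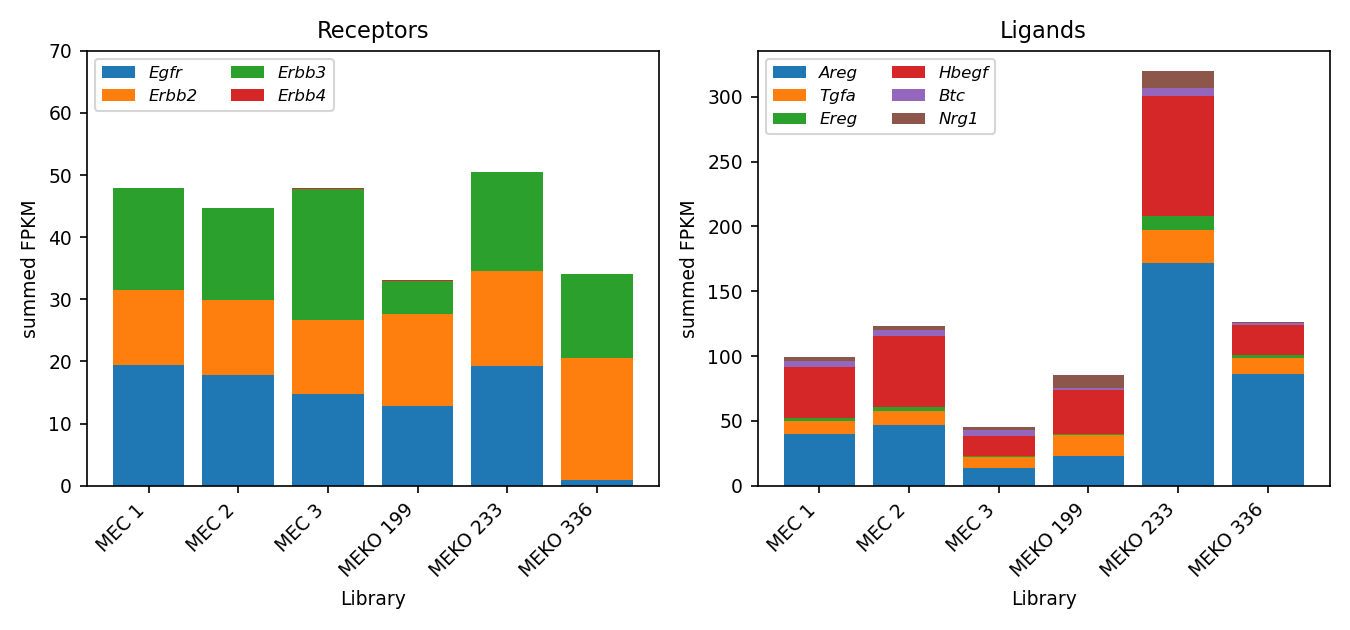
Summed FPKM of the 4 receptors (left) and the 6 ligands (right) in each library, with 1 segment per gene in linear FPKM. *Egfr* is almost missing from the bar of line 336, and the ligand bar of line 233 reaches 319.6 FPKM, against 45.2 to 123 FPKM in MEC.

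Among the ligands, line 233 had the highest value of all 6 libraries for 6 of 6 ligands, a place it holds for 16% of all tested genes. The ligands were noted as a set after their values were seen. Compared with MEC, a line was read as past 2-fold where its log2(FPKM + 1) differed by more than 1 from the MEC mean and lay outside the MEC range. By this reading, which has no test since each line is 1 library, 5 members were higher in line 233 (*Areg*, *Tgfa*, *Ereg*, *Hbegf* and *Nrg1*; 6.36% of all genes) and 0 were lower (13.8%). In line 199 *Nrg1* was higher (7.89% of all genes), and *Erbb3* and *Btc* were lower (12.3%). In line 336 *Areg* was higher (6.79%), and *Egfr*, *Btc* and *Nrg1* were lower (14.4%). Without MEC 3, *Hbegf* in line 233 (0.98) and *Areg* in line 336 (0.98) came out just under this limit, leaving 4 and 0 higher, and *Ereg* was also lower in line 199 (-1.33).

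**Figure D3:**
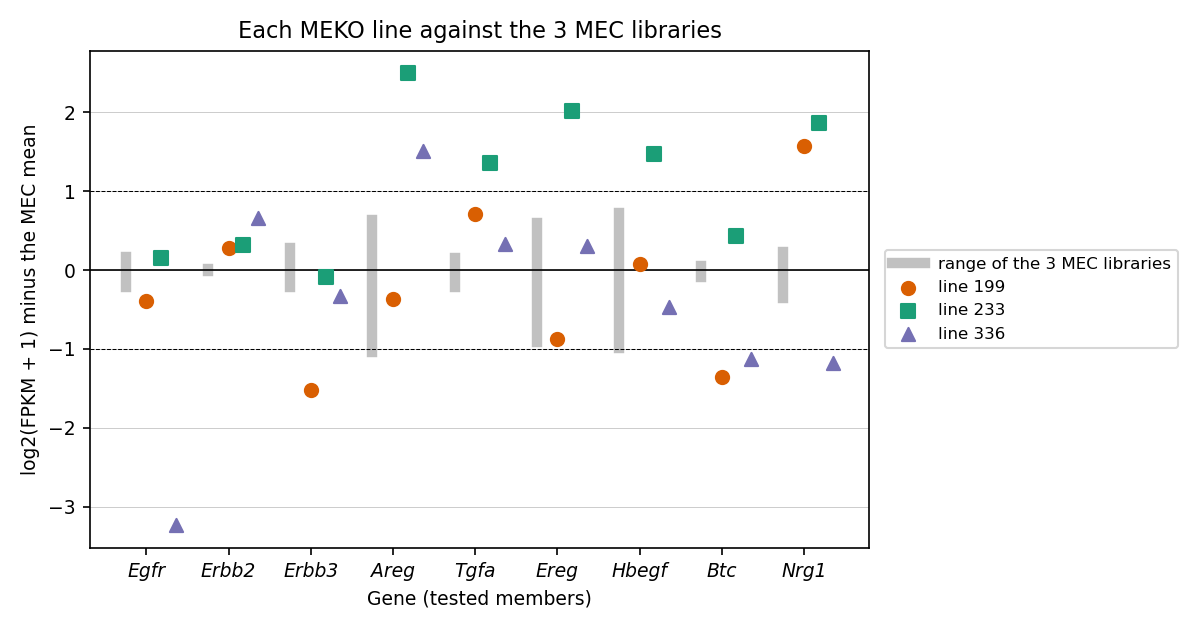
Difference of each MEKO line from the MEC mean in log2(FPKM + 1), for the 9 tested members, with the range of the 3 MEC libraries as a grey bar and dashed lines at a difference of 1 either way. Line 233 is above 1 for 5 of the 6 ligands, and *Egfr* in line 336 is at -3.23.

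*Areg* (chromosome 5, 91139599 to 91148432), the ligand of ductal growth, was the most abundant ligand in lines 233 and 336. Its level was 39.5, 46.7 and 13.9 FPKM in MEC 1, 2 and 3, and 22.7, 172 and 86.0 FPKM in lines 199, 233 and 336. Lines 233 and 336 were above each MEC library by log2 differences of 2.49 and 1.5 from the MEC mean, whereas line 199 lay within the MEC range. *Areg* in line 233 was above 96.7% of tested genes. The means were 33.4 ± 17.2 FPKM in MEC and 93.4 ± 74.7 FPKM in MEKO (SD, n = 3), a log2 fold change of 1.21 (95% interval -0.70 to 3.11, limma adjusted p = 0.36). Without line 199 it was 2.00, and without line 233 it was 0.57, neither past the test.

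*Areg* lies in a cluster of EGF family genes on chromosome 5 of GRCm38, in the order *Epgn*, *Ereg*, *Areg*, *Btc* over 376 kb with 0 other protein-coding genes in the gaps between them. Epigen (*Epgn*) is a ligand of EGFR outside the 10 genes of the family as defined here. The cluster did not move as a block. *Areg* and *Ereg*, 46.0 kb apart, and *Btc* at the end of the cluster, all ranked the lines 233, 336, 199, but *Btc* was below MEC in lines 336 and 199, and *Epgn* at the other end was lowest in line 233. In lines 233 and 336 *Areg* was above MEC and *Epgn* below. The 250 bases before the start site are shown for the cluster genes held in RefSeq's promoter table (GRCm38.p6), to set side by side the start sites of neighbors whose values differed. The table gave promoters for 6 of the 10 family members, and *Erbb3*, *Ereg*, *Hbegf* and *Nrg1* were not matched. Each is written 5′ to 3′ on the strand of its gene, with the cyclic AMP response element TGACGTCA in capitals.
*Areg*, chr5:91139349-91139598, plus strand: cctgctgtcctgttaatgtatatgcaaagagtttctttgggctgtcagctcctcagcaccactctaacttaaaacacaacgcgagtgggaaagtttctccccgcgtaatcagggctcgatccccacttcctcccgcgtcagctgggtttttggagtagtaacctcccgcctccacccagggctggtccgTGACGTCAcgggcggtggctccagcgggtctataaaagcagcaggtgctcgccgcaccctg
*Epgn*, chr5:91027267-91027516, plus strand: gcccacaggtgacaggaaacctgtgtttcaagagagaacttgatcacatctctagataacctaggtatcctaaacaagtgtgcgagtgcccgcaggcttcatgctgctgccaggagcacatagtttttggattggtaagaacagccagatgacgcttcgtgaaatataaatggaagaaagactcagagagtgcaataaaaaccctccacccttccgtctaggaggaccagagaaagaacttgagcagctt
*Btc*, chr5:91402995-91403244, minus strand: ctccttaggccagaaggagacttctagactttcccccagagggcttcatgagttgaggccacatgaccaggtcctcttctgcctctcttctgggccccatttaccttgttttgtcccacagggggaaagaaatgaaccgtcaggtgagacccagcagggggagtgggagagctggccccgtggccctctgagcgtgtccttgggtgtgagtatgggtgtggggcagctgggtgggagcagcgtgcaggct
TGACGTCA, which reads the same on both strands, was found in the *Areg* sequence, ending 53 bases before the start, and in no other of the 6 matched members. It was in 1.55% of the 32851 promoters of the table at this length. The AP1 motif TGANTCA, also the same on both strands and not able to match within TGACGTCA, was in 0 of the 6 and in 6.75% of all promoters. A match of letters is a description and not a bound site.

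*Ereg* (chromosome 5, 91074622 to 91093646) was low, with 2.65, 3.44 and 0.568 FPKM in MEC and 0.599, 10.9 and 2.63 FPKM in lines 199, 233 and 336. Line 233 was the single high value and the other lines were within the MEC range. *Areg* was 13.6 to 37.9 times *Ereg* in every library, although both genes spanned wide ranges. Small parts of the exons of *Ereg* (3.42%) and *Tgfa* (1.82%) lie opposite other annotated genes. The log2 fold change of *Ereg* was 0.48 (95% interval -1.39 to 2.36, limma adjusted p = 0.718) and turned to -0.29 without line 233.

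*Tgfa* (chromosome 6, 86195223 to 86275719) had 10.1, 10.7 and 8.14 FPKM in MEC and 16.3, 26.0 and 12.3 FPKM in lines 199, 233 and 336. Each line lay above each MEC library, with line 233 the highest. The means were 9.66 ± 1.36 FPKM and 18.2 ± 7.04 FPKM (SD, n = 3), a log2 fold change of 0.80 (95% interval 0.11 to 1.48). The change did not pass adjustment (limma unadjusted p = 0.0284, adjusted p = 0.131), and it lay between 0.52 and 1.03 over all alternatives. The exact permutation p was again 0.1. *Tgfa* had the lowest p of the ligands. The tested genes with the most alike profiles were *Mafk*, *Tnfrsf22* and *Rfx2*, at root mean square differences of 0.14, 0.14 and 0.15 on the centered log2 scale over 6 libraries.

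*Hbegf* (chromosome 18, 36504927 to 36515805), which encodes heparin-binding EGF-like growth factor, was with *Areg* the main ligand of MEC. It had 39.5, 54.3 and 15.9 FPKM in MEC and 34.4, 92.1 and 23.3 FPKM in lines 199, 233 and 336. Line 233 was above the MEC range and the other lines lay inside it. The log2 fold change was 0.36 (95% interval -1.14 to 1.85, limma adjusted p = 0.737). It turned to -0.20 without line 233 and to -0.14 without MEC 3.

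*Btc* (chromosome 5, 91357261 to 91402994) was even in MEC, at 4.21, 4.72 and 4.76 FPKM, and had 1.17, 6.503 and 1.53 FPKM in lines 199, 233 and 336. Lines 199 and 336 were below each MEC library and line 233 above. The log2 fold change was -0.69 (95% interval -1.83 to 0.46, limma adjusted p = 0.386). Without line 233 *Btc* was called lower, at -1.25 (limma adjusted p = 0.0298). *Btc* was called in 1 of 12 alternatives, the one that left out its highest line.

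*Nrg1* (chromosome 8, 31814551 to 32884029), the neuregulin, had 3.40, 3.07 and 1.92 FPKM in MEC and 10.2, 12.6 and 0.649 FPKM in lines 199, 233 and 336. Lines 199 and 233 were above each MEC library and line 336 below each. Line 336, the line with little *Egfr*, was thus the lowest library for *Nrg1* also. The log2 fold change was 0.75 (95% interval -1.17 to 2.67, limma adjusted p = 0.566). Without line 336 *Nrg1* was called higher, at 1.72 (limma adjusted p = 0.025). *Nrg1* was called in 1 of 13 alternatives, the one that left out its lowest line. An antisense gene on the opposite strand, *Gm26578*, covers 4.66% of its exonic length, and whether counting used strand is not given in the sources used here.

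**Figure D4:**
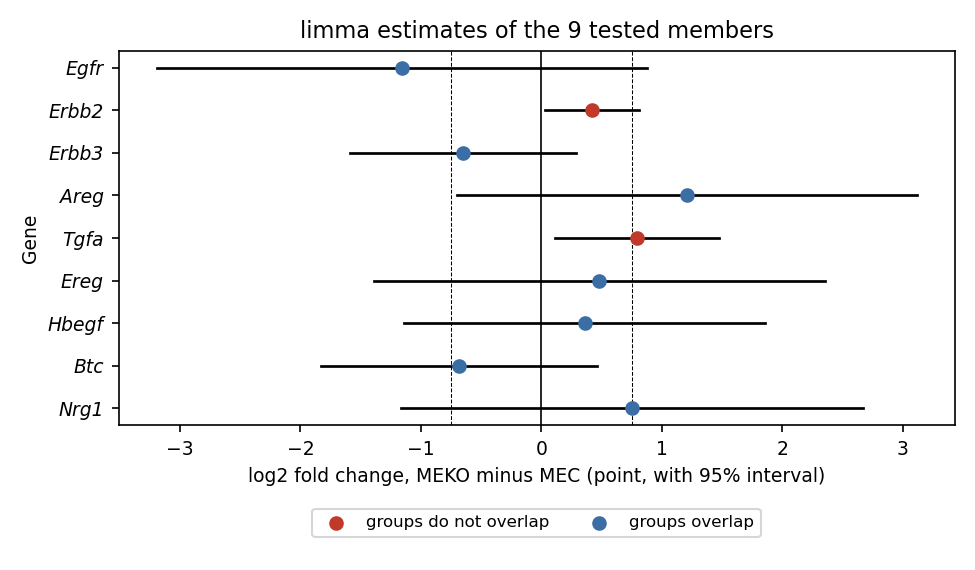
The limma log2 fold change of MEKO minus MEC for the 9 tested members, as a point (red where the groups do not overlap) with its 95% interval, 3 libraries per group; dashed lines mark 0.75 either way. Only the intervals of *Erbb2* and *Tgfa* leave out 0, before adjustment over all genes.

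By share of the summed ligand FPKM, *Areg* and *Hbegf* together led in every library. In MEC *Areg* held 30.8% to 39.7% and *Hbegf* 35.2% to 44.1%. In line 336 *Areg* held 68.0% and *Hbegf* 18.4%, and in line 233 53.7% and 28.8%. *Areg* was 0.861 to 0.999 times *Hbegf* in MEC, 0.660 times in line 199, 1.86 times in line 233 and 3.69 times in line 336. *Nrg1* held 11.9% in line 199 against 2.499% to 4.25% in MEC.

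The MEC libraries also differed in their ligands. MEC 3 was the lowest of MEC for 5 of 6 ligands, all but *Btc*, as it was for 39.3% of all tested genes. Its summed ligand level was 45.2 FPKM, against 99.4 FPKM in MEC 1 and 123 FPKM in MEC 2. *Areg*, *Hbegf* and *Ereg* varied by 3.36, 3.41 and 6.06 times between the highest and lowest MEC library, and these 3 of 9 members went past 3-fold, where 5.12% of all genes did. MEC 3 also had the lowest sums of MEC for 5 of the 6 marker lists, among them endothelium (1.47 FPKM against 11.5 and 12.8 FPKM), fat cells (1.28 FPKM against 7.74 and 11.7 FPKM) and basal cells (1462 FPKM against 2458 and 2733 FPKM), and the highest leukocyte sum (8.12 FPKM against 4.49 and 5.69 FPKM). The part of these in the result was not tested. 

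Other genes of the pathway were taken from lists of ligands outside the family, ligand release, receptor partners, receptor restraint, adaptors and response genes, 56 in all, of which 52 were tested. In MEKO 0 were higher, against 2.64% of all tested genes, and 7 were lower, or 13.5%, against 7.26% of all tested genes. With sample weights in limma 1 was called higher. At an unadjusted p under 0.05 2 of the 52 were higher and 15 lower, where 28.2% of all tested genes passed in either direction. The shares of all tested genes by direction were not computed, so the split into 2 and 15 has no background to be read against. The 52 genes had a median log2 fold change of -0.29, with 14 above 0 and 38 below. Of all 12461 tested genes, 6381 lay above 0 and 6080 below, with a median of 0.01. The 7 were *Epgn*, *Adam10*, *Furin*, *Muc1*, *Ptpn1*, *Nck2* and *Ier3*. Each lost its call without MEC 1 and without MEC 2, when the called genes of the whole table also dropped from 1234 to 259 and 301. Without MEC 3, line 233 and line 199 the pathway genes called lower numbered 2, 3 and 11. *Epgn* kept its call in 4 of 12 alternatives. *Muc1* kept its call in 7 of 13, *Adam10* and *Ptpn1* in 8, *Furin* and *Ier3* in 10 and *Nck2* in 11. The calls of *Epgn* and *Muc1* were also lost with a pseudocount of 0.1 and with the filter at 0 FPKM.

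Of the other ligands, *Epgn* (chromosome 5, 91027464 to 91035215) fell in MEKO. It had 3.98, 4.66 and 4.04 FPKM in MEC and 1.23, 0.329 and 1.88 FPKM in lines 199, 233 and 336, a log2 fold change of -1.35 ± 0.32 (SE; limma adjusted p = 0.0472). Line 233, highest for the 6 ligands of the family, was lowest for *Epgn*. This call passed in 4 of 12 alternatives. *Nrg4* had 0.871 to 1.55 FPKM in MEC and 0.674 to 1.41 FPKM in MEKO (log2 fold change -0.01, limma adjusted p = 0.987). *Nrg2* was not tested, at 0.316 to 0.560 FPKM in MEC and 0.638 to 1.78 FPKM in MEKO. *Egf* itself was between 0.0468 and 0.108 FPKM in every library, and *Nrg3* was listed at 0 in all 6.

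Among genes of ligand release 2 of 10 were lower (20%, against 7.26% of all tested genes) and 0 higher (2.64% of all tested genes), with a median of -0.26. *Adam10*, a protease that cuts betacellulin and EGF from the membrane, had 55.9, 54.0 and 65.2 FPKM in MEC and 36.6, 26.2 and 30.5 FPKM in lines 199, 233 and 336, a log2 fold change of -0.89 ± 0.17 (SE; limma adjusted p = 0.0268). *Furin*, a convertase that matures ADAM proteases, had 61.8, 64.7 and 53.6 FPKM in MEC and 28.3, 18.0 and 29.8 FPKM in MEKO, at -1.24 ± 0.22 (SE; limma adjusted p = 0.0214). In both genes the groups lay apart with MEKO lower, as in 18.7% of all tested genes. This rests on the same values as the calls.

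Among receptor partners 1 of 4 tested genes was lower (25%, against 7.26% of all tested genes). *Muc1*, a membrane mucin of luminal cells that binds ERBB receptors, fell from 20.004, 20.3 and 17.9 FPKM to 0.168, 6.69 and 1.10 FPKM, a log2 fold change of -2.94 ± 0.65 (SE; limma adjusted p = 0.04). The summed luminal markers were lower in the same lines. Of 11 genes of receptor restraint 1 was lower (9.09%, against 7.26% of all tested genes). This was *Ptpn1*, a tyrosine phosphatase that acts on EGFR, at -0.93 ± 0.20 (SE, limma adjusted p = 0.0374). It fell from 25.1 to 26.1 FPKM in MEC to 10.4 to 17.2 FPKM in MEKO. The other 10, among them ubiquitin ligases of the CBL family and the LRIG inhibitors, lay between -0.82 and 0.29.

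Adaptors had a median of 0.03, with 1 of 14 lower (7.14%, against 7.26% of all tested genes). This was *Nck2*, which links receptors to the actin skeleton, at 33.1 to 41.9 FPKM in MEC and 15.7 to 18.2 FPKM in MEKO (log2 fold change -1.07 ± 0.15, SE; limma adjusted p = 0.0119). Response genes, those induced soon after growth factor, had a median of -0.85. Of these 1 of 11 was called lower (9.09%, against 7.26% of all tested genes) and 0 higher. *Ier3*, an early response gene, had 385, 406 and 255 FPKM in MEC and 93.8, 120.3 and 163 FPKM in lines 199, 233 and 336 (log2 fold change -1.47 ± 0.27, SE; limma adjusted p = 0.0237). The plot of the pathway lists shows the called genes all on the lower side and the adaptors centered near 0.

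**Figure D5:**
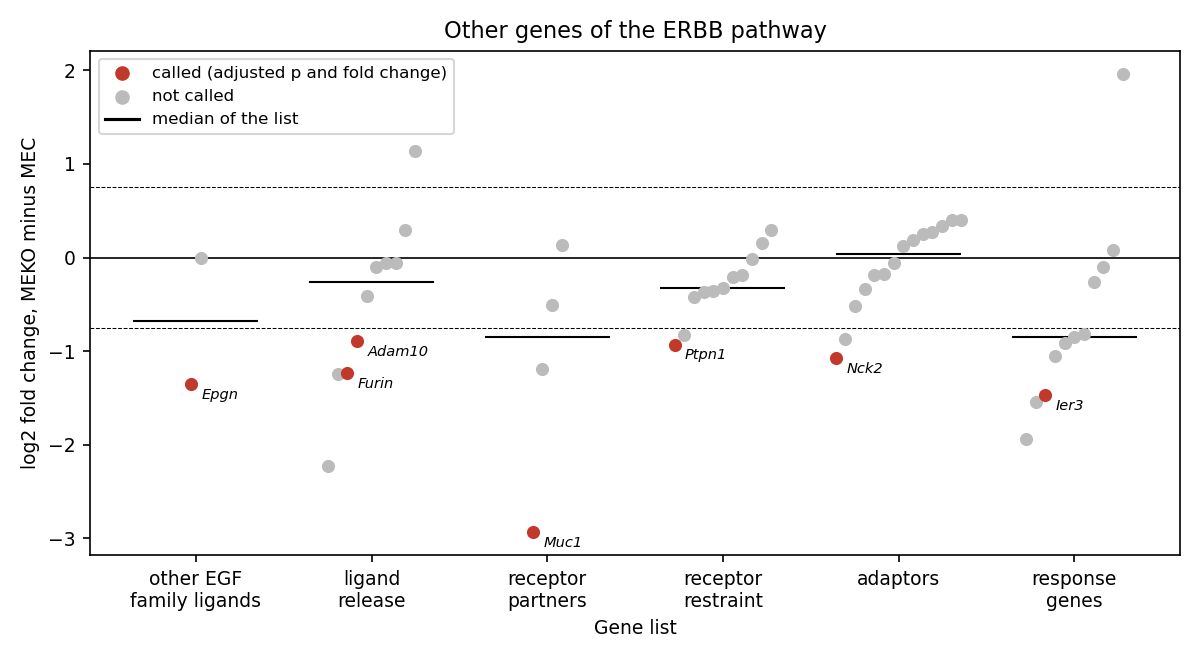
The limma log2 fold change of MEKO minus MEC of the 52 tested genes in 6 pathway lists, with called genes in red and named, a bar at the median of each list and dashed lines at 0.75 either way. The 7 called genes are all below 0, and the list medians run from -0.85 to 0.03.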

How the data were processed

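Per the labels and the study's methods, the authors trimmed the reads, aligned them to mm10 (GRCm38) with Bowtie2 and TopHat2 2.0.14 and quantified genes with Cufflinks 2.2.1. The deposited FPKM values, 1 per gene and library, were scaled by the authors to transcript length and depth. Of 37755 entries, 2 hold no values. The annotation and strand setting are not given in the sources used here. Depth per library is unknown, and low genes are measured least precisely.

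Groups were taken from sample titles, 3 libraries each. A symbol was matched to the names in an entry, and the entry of highest mean was kept. limma 3.58.1 (R 4.3.3) was fitted to log2(FPKM + 1) with a mean-variance trend, over 12461 genes with a mean of at least 1 FPKM, with Benjamini-Hochberg adjustment and the study's thresholds (adjusted p under 0.05, log2 fold change beyond 0.75). It was tested on simulated data with the same spread in both groups. In the real data the SD was larger in MEKO for 73.6% of tested genes, which the simulation does not cover. Cuffdiff, which needs reads, was not repeated. Single members also had an exact permutation test (two-sided). The members and gene lists were chosen with earlier results of these data known. Text names all members and other ligands, and up to 4 called genes per pathway list by size of change. Positions came from GENCODE M21 (GRCm38). Alternatives were a pseudocount of 0.1, filters at 0 and 5 FPKM, quantile and upper-quartile scaling, leaving out each library, sample weights and no trend.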

Additional observations from a re-analysis of the deposited data

How the results depend on the processing

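Of 115 fold changes of single members recomputed under the alternatives, 110 kept their direction and their side of the thresholds. The exceptions all came from leaving out a library. Over the 6 such fits, *Ereg* lay between -0.29 and 1.16 and *Hbegf* between -0.20 and 0.77, both turning below 0 without line 233 and *Hbegf* also without MEC 3. *Btc* (-1.25 to -0.35) was called without line 233 and *Nrg1* (0.20 to 1.72) without line 336. Members called ran from 0 to 1 higher and from 0 to 1 lower, pathway genes from 0 to 1 higher and from 0 to 11 lower, and all genes from 48 to 568 higher and from 211 to 1398 lower. With sample weights 600 genes were called higher and 1378 lower, and 1 and 12 pathway genes. With the filter at 5 FPKM 501 genes were called lower, of fewer tested. In line 336 members past 2-fold lower went from 3 to 1 with quantile normalization, where *Egfr* was left, and members higher ran from 0 to 1 as each MEC library was left out, an alternative chosen after seeing the data. Apart from these constructions the cause was not tested. Groups share no replicate numbers, so no paired analysis was possible. Read numbers are unknown, so the precision of *Erbb4*, *Egf* and other genes near 0 cannot be given.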

Other observations

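Some genes of the pathway lists that were not called had values of interest, and they were chosen after their values were seen. *Adam17*, the main protease that releases amphiregulin, TGFα and HB-EGF, had 23.4, 24.5 and 26.6 FPKM in MEC and 33.5, 29.2 and 29.3 FPKM in lines 199, 233 and 336. Each line was thus above each MEC library (limma adjusted p = 0.228), as in 18.5% of all tested genes, while *Adam10* was lower. *Fosl1*, an AP1 gene among the response genes, had 10.4, 19.3 and 2.38 FPKM in MEC 1, 2 and 3 and 23.2, 62.6 and 29.2 FPKM in lines 199, 233 and 336 (log2 fold change 1.96, limma adjusted p = 0.132). As for *Areg*, line 233 was highest and MEC 3 lowest of the 6 libraries. *Plaur*, the urokinase receptor, spread over MEC in the same order as *Areg*, at 65.1, 115 and 16.6 FPKM, but was nearly even in the lines, at 52.8 to 54.7 FPKM. *Egr1*, an immediate early gene, had 18.1 to 21.3 FPKM in MEC and 3.805, 25.9 and 10.1 FPKM in lines 199, 233 and 336. *Errfi1*, a feedback inhibitor that binds ERBB kinases, was at 37.2 to 49.5 FPKM in MEC and at 26.9, 48.0 and 58.5 FPKM in lines 199, 233 and 336 (log2 fold change -0.02, limma adjusted p = 0.981), so line 199 lay below and line 336, the line with least *Egfr*, above the MEC range.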
